A study of Morone chrysops x Morone saxatilis with 6 samples.

Results

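Among 38047 coding sequences counted in the liver of hybrid striped bass, 200 were chosen because their RNA was more abundant in both libraries numbered 1 than in any other library of the series. Counts were first scaled to the library total, as CPM (counts per 1000000), and the 100 rows of highest mean CPM were left out. Rows with a mean of 5 CPM or more over the pair of libraries numbered 1 were kept, which left 12634. These were ranked by the lower CPM of the number 1 libraries over the highest CPM of the other 4 libraries, with 0.5 CPM added to each, and the first 200 were taken. They are called members here. The members were thus chosen by their CPM in number 1 against the other libraries, and these levels are given as a description without a test.

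The fish were hybrids of domesticated white bass, of generation 8, with striped bass, of generation 4. Per the labels they came from 44 half-sib families and grew together for 115 days in communal ponds, after which liver was taken from the largest and the smallest of them. Large fish gave 3 libraries and small fish gave 3, each made from RNA pooled from several fish, so that no library stands for a single animal. The labels number the libraries 1 to 3 within each growth group without saying what a number stands for. No gene deletion, drug or diet contrast separates the groups, and growth (large or small) is the contrast that the labels give. Since the labels leave out how fish were assigned to pools, a p-value here speaks of the spread between the pools at hand. Single libraries are written below as large 1, small 1 and so on.

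The liver of a bony fish handles sugars, lipids and amino acids, makes bile, clears foreign compounds and secretes most plasma proteins. It also responds to growth hormone by releasing insulin-like growth factor, which makes it a tissue of interest for growth. The deposited table names its rows by a running number and pairs 0 of them with a gene name, so the members are named by identifier and no role can be given to them. In a bulk sample, fewer cells of a type and less RNA per cell cannot be told apart. The counting may also share reads between near-identical copies of a gene, so values of similar coding sequences are uncertain.

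Depth ran from 2434421 counts in small library 2 to 19625891 in large library 3, and number 1 had 5327580 counts in its large and 8892682 in its small library. A single count is worth 0.051 CPM in large library 3 and 0.411 CPM in small library 2. Where no count was seen, a level of up to 3 counts remains possible, equal to 0.153 CPM in large library 3 and 1.23 CPM in small library 2.

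Together the members were a small part of the liver RNA in every library. They took 0.804% of all counts in the large and 0.897% in the small library of number 1. Their share was 0.117% in the large and 0.103% in the small library of number 2, and 0.0712% in the large and 0.0641% in the small library of number 3. Without the most abundant member the shares were 0.727% and 0.778% in the large and small libraries of number 1, and 0.0625% to 0.105% in the other 4 libraries. The higher share in number 1 was thus not held by 1 sequence alone, although the rule chose every member for being higher there. The 10 most abundant members held 41.9% and 42.6% of the members' counts in the large and small libraries of number 1, and 41.7% to 54.4% in the other 4.

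**Figure D1:**
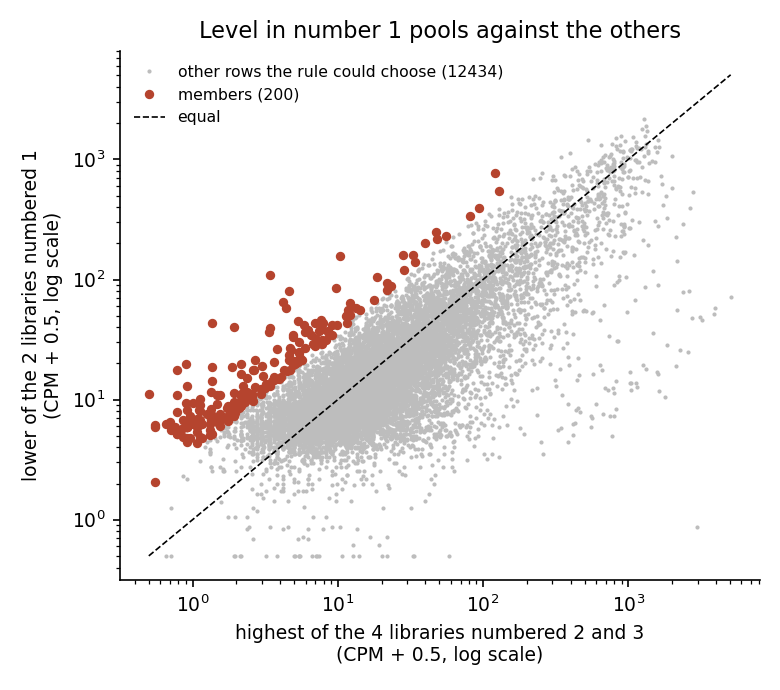
Each point is 1 of the 12634 coding sequences the rule could choose from, with the lower CPM of the 2 libraries numbered 1 on the vertical axis and the highest CPM of the other 4 libraries on the horizontal axis, both plus 0.5 on log scales. The 200 members (red) form the upper left edge of the cloud, and the dashed line marks equal levels.

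The ratio used for ranking had a median of 5.03 over the members and ran from 3.73 to 31.8. It was 5 or more for 102 members, 10 or more for 19, 20 or more for 6 and 30 or more for 2. There was no gap at the limit. The member ranked 200, HSB_liver_CDS_33982, had 13.5 and 10.6 CPM in large 1 and small 1, against 1.46, 2.46, 0.102 and 0 CPM in large 2, small 2, large 3 and small 3. The row ranked 201, HSB_liver_CDS_253, had 33.2 and 27.2 CPM in large 1 and small 1, against 2.93, 4.52, 6.93 and 6.59 CPM in the same order, and its ratio was again 3.73. The row ranked 203 had a ratio of 3.71.

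The same ranking was also made with number 2 or number 3 in the place of number 1, using the values that chose the members. The limit below is the ratio of the last member, which 200 rows reach with number 1 by construction. The ratio takes the lower library of a pair, so such counts also depend on how alike its libraries are. With number 2 put in the place of number 1, 2 of 11592 rows had a ratio at or above that of the last member, and with number 3 in its place 89 of 11772 did. The ratio at rank 200 was 3.73 for number 1, 1.17 for number 2 and 1.96 for number 3. Over all 12634 rows open to the rule with number 1, 5228 (41.4%) had a ratio above 1.

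Of the members, 65 had a highest level under 1 CPM outside number 1, 36 had 1 to 2 CPM, 47 had 2 to 5 CPM, 27 had 5 to 10 CPM and 25 had 10 CPM or more. Members of the first kind had a median of 7.39 CPM over the pair of number 1 libraries (5.05 to 43.0 CPM), and those of the last kind had 107 CPM (46.0 to 980 CPM). Of the last kind, 24 of 25 had counts in every library. The list thus runs from sequences seen mainly in number 1 at a low level to more abundant sequences that the other libraries held at a lower level. Other members lay between these ends. The rule ties these levels together, since a member high elsewhere had to be higher still in number 1. Mean levels in number 1 were 5 to 10 CPM for 68 members, 10 to 50 CPM for 94, 50 to 100 CPM for 22 and 100 CPM or more for 16. Their median of 15.97 CPM lay close to the 15.25 CPM of all rows open to the rule.

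Every member had counts in both libraries of number 1. Counts were found for 156 members in large 2, 117 in small 2, 188 in large 3 and 125 in small 3, which is the order of the totals of these 4 libraries. In large 3, the deepest library of the series, 12 members had 0 counts. The median level of the members there, 1.02 CPM, is below the 1.23 CPM that 0 counts allow in small 2, so absence from a shallow library cannot be told from a low level. All of the 4 other libraries had counts for 78 members, and 3 of the 4 had 0 counts for 26. A single member had 0 counts in all 4. This was HSB_liver_CDS_13624, ranked 3, with 57 and 115 counts (10.7 and 12.9 CPM) in large 1 and small 1. Set against the limit of 3 counts over those 4 libraries together (0.0989 CPM), its lower level in number 1 was 108-fold higher. That limit holds for a level shared by the 4 libraries, of which large 3 is the deepest. Taken singly, 0 counts allow more, with 0.627 CPM in large 2, 1.23 CPM in small 2 and 0.859 CPM in small 3.

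**Figure D2:**
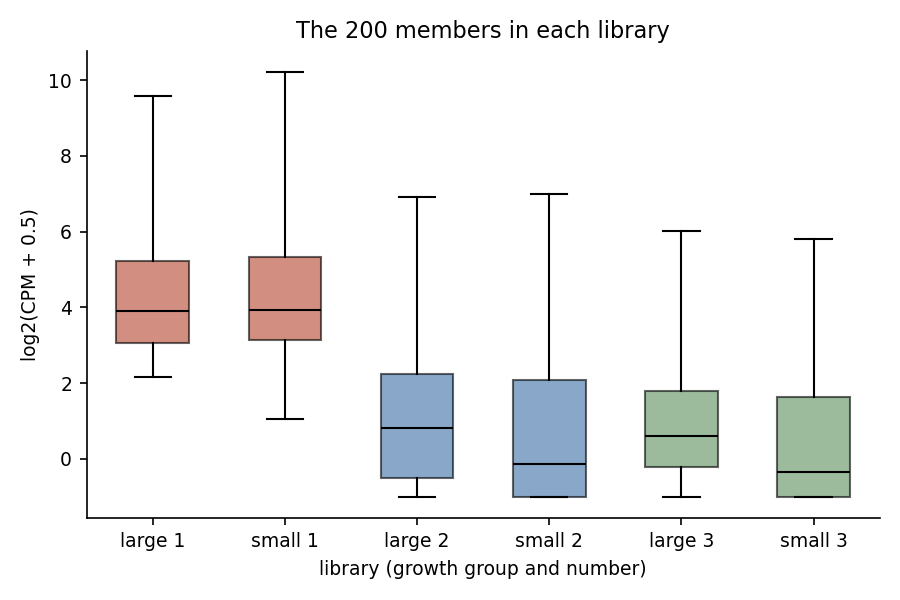
Levels of the 200 members in each of the 6 libraries as log2(CPM + 0.5), with the libraries of number 1 on the left. Boxes span the quartiles, the line is the median and the whiskers reach the lowest and highest member. The medians are 14.4 and 14.8 CPM in large 1 and small 1, and between 0.286 and 1.25 CPM in the other 4.

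The member of highest rank, HSB_liver_CDS_13625, had 43.2 and 42.7 CPM in large 1 and small 1. It had 0.836 and 0.822 CPM in large 2 and small 2, and 0 and 0.859 CPM in large 3 and small 3, which rest on 4, 2, 0 and 3 counts. Its levels in large and small fish were thus alike within number 1, and it was near the limit of detection elsewhere. HSB_liver_CDS_10704, ranked 2, had 108 and 217 CPM in large 1 and small 1. It had 2.93 and 0 CPM in large 2 and small 2, and 0.357 and 0 CPM in large 3 and small 3. Unlike the member of highest rank, it was higher in the small library of number 1 and had no count in either of the other small libraries, where a count of 0 allows 1.23 and 0.859 CPM.

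The most abundant members had lower ranks. HSB_liver_CDS_35964, ranked 59, had 769 and 1191 CPM in large 1 and small 1. It had 120 and 73.9 CPM in large 2 and small 2, and 24.97 and 16.9 CPM in large 3 and small 3. Its levels formed 3 steps, with number 1 above number 2 and number 2 above number 3. HSB_liver_CDS_32484, ranked 146, had 541.5 and 541.7 CPM in large 1 and small 1, 119 and 128 CPM in large 2 and small 2, and 51.7 and 33.8 CPM in large 3 and small 3. It kept the same order of numbers, with large and small libraries close together within numbers 1 and 2.

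The rule did not rank members by large against small fish. It took the lower level of large 1 and small 1, however, so these tests are not independent of the choice of members. In edgeR's quasi-likelihood test over all 6 libraries, 0 of 20203 coding sequences passed an adjusted p of 0.05 (0%), and 0 of the 199 members that were tested passed it. The smallest adjusted p among the members was 1.0 in that fit (Benjamini-Hochberg over all coding sequences tested). At an unadjusted p under 0.05 there were 0 members, against 1.15% of all coding sequences tested. The member left out by the filter on low counts was HSB_liver_CDS_23630, ranked 193, with 53 and 14 counts in the large and small libraries of number 1 and 1 count in all others together. With the number as a block, edgeR again passed 0 members (0% of all) and DESeq2 passed 0 of the 182 members with an adjusted p, against 0.285% of all coding sequences with one. DESeq2 without the block gave a p to 157 members and 37332 of all coding sequences, against 200 and 37503 with the block. It passed 0 of those 157 members, against 0.00268% of all. Why the other members had no p there was not tested, so this count does not cover the whole list. At an unadjusted p under 0.05 the block fit of edgeR had 5 of 199 members, against 4.86% of all tested, and that of DESeq2 had 8 of 200, against 2.15% of all. That last share is over 37503 coding sequences, of which 17886 had an adjusted p. It thus includes many rows that DESeq2's filter on mean count left out, and the share without them was not computed. Without the block, the difference between number 1 and the others, which chose the members, counts as spread within each growth group, so that a count of 0 there does not bound how many members differ. With the block, edgeR's smallest adjusted p over all coding sequences was 0.96, and its count of 0 sets no such bound either.

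Within number 1, large and small libraries held similar levels of most members. Of the 200 members, 92 were higher in the large and 108 in the small library (46.0% higher in large, against 55.9% of the rows open to the rule). The median log2 difference, large minus small on the log2(CPM + 0.5) scale, was -0.03 for the members and 0.07 for the rows open to the rule, and the quartiles of the members were -0.30 and 0.20. A difference of 2-fold or more was found for 7 members higher in the large library (background 5.03%) and 13 higher in the small library (background 5.33%). With TMM scaling, a correction for differences in RNA composition that the edgeR test also uses, 71 members (35.5%) were higher in the large library, against 48.8% of the rows open to the rule. The rule takes the lower of the pair of number 1 libraries and so selects against members that are far apart there.

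In numbers 2 and 3, where the members were low, more of them were higher in the large library, but the libraries differed in depth in the same direction. In number 2, 115 members were higher in the large and 56 in the small library, and 29 had 0 counts in both. In number 3, 129 were higher in the large and 64 in the small library, and 7 had 0 counts in both. A difference of 2-fold or more was found in number 2 for 54 members higher in large (background 7.99%) and 17 higher in small (background 10.4%), and in number 3 for 54 higher in large (background 6.89%) and 14 higher in small (background 5.83%). The share higher in large was 57.5% in number 2 and 64.5% in number 3, against 42.8% and 42.5% of the rows open to the rule. The large library was the deeper of the pair in both numbers, with 4783800 counts against 2434421 in number 2 and 19625891 against 3491954 in number 3. Members at 0 counts numbered 44 in large 2 against 83 in small 2, and 12 in large 3 against 75 in small 3. Among members with 10 CPM or more over both libraries of the number, 21 were higher in the large and 18 in the small library of number 2 (53.8% higher in large, background 40.7%), and 16 and 16 in number 3 (50%, background 38.4%). TMM scaling moved the log2 differences by 0.16 in number 2 and 0.11 in number 3. It gave 62% and 66.5% of members higher in large, against 53.5% and 52.2% of the rows open to the rule, and 29 of the 39 (background 53.3%) and 18 of the 32 (background 49.9%) among members with 10 CPM or more. The part of depth in these shares was not tested further. Over all 3 numbers, 33 members were higher in large each time (background 11.9%) and 13 were lower in large each time (background 16.7%). With TMM scaling these were 31 and 13 members, against 16.5% and 13.8% of the rows open to the rule. The median over the members of the log2 difference between the mean of the large and the mean of the small libraries was 0.21, against -0.03 over the rows open to the rule. It ran from -0.82 without large 1 to 1.46 without small 1, and the median over the members tested was -0.07 in edgeR without the block, 0.25 in edgeR with the block and 0.29 in DESeq2 with the block.

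**Figure D3:**
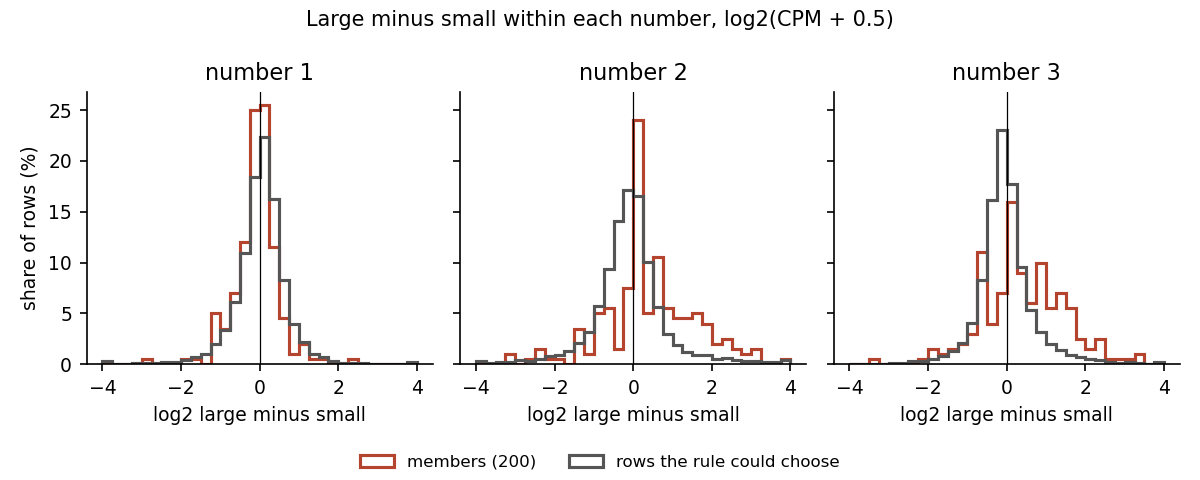
Histograms of the difference between the large and the small library, log2(CPM + 0.5), in numbers 1, 2 and 3, as a share of the 200 members (red) and of the 12634 rows the rule could choose from (grey). Values beyond 4 in either direction are drawn at 4. The members centre near 0 in number 1 and have medians of 0.13 and 0.29 in numbers 2 and 3.

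By the smallest p in the edgeR test of large against small, HSB_liver_CDS_17165 and HSB_liver_CDS_27056 led the members that were higher in large fish. HSB_liver_CDS_17165 had 11.3, 0.627 and 0.204 CPM in large libraries 1, 2 and 3, against 4.39, 0 and 0.573 CPM in small libraries 1, 2 and 3. It was higher in the large library of numbers 1 and 2 and lower in that of number 3. In large and small fish it rests on 3 and 0 counts in number 2, and on 4 and 2 counts in number 3. The log2 fold change, 1.06 with an SE of 1.63, had an edgeR adjusted p of 1.0. HSB_liver_CDS_27056, ranked 13, had 133, 3.55 and 3.92 CPM in the large libraries, against 56.9, 2.46 and 1.43 CPM in the small ones. It was higher in the large library of each number, although the groups overlap because number 1 lies far above the rest. Its mean was 46.9 ± 74.7 CPM in large and 20.3 ± 31.7 CPM in small fish (SD, n = 3 each). The log2 fold change, 1.10 with an SE of 1.71, had an edgeR adjusted p of 1.0. Without large 1 the log2 fold changes of these members were -2.04 for HSB_liver_CDS_17165 and -2.31 for HSB_liver_CDS_27056, since the large group then held no library of number 1.

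In the other direction, HSB_liver_CDS_16608, ranked 179, had 4.69, 0.836 and 0.0509 CPM in the large libraries, against 37.7, 0 and 0.286 CPM in the small ones. Its difference lay in number 1, with 25 counts in the large and 335 in the small library, while the other libraries held 0 to 4 counts. The log2 fold change, -2.90 with an SE of 2.03, had an edgeR adjusted p of 1.0, and without small library 1 it was 3.29. HSB_liver_CDS_27055, ranked 119, had 24.6, 2.72 and 1.17 CPM in the large libraries, against 90.3, 4.93 and 1.43 CPM in the small ones. It was lower in the large library of each number. The log2 fold change, -1.84 with an SE of 1.60, had an edgeR adjusted p of 1.0, and without small library 1 it was 1.53.

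Of these, HSB_liver_CDS_27055 and HSB_liver_CDS_27056 have consecutive running numbers and belong to the longest run of consecutive members, HSB_liver_CDS_27054 to HSB_liver_CDS_27057. The pattern of this run was noticed after its values were seen, and it is described without a test of its own. HSB_liver_CDS_27054, ranked 14, had 81.8, 2.93 and 2.80 CPM in large libraries 1, 2 and 3, against 39.0, 1.64 and 0.859 CPM in small libraries 1, 2 and 3. HSB_liver_CDS_27057, ranked 84, had 42.8, 3.34 and 1.68 CPM in the large libraries, against 138, 7.39 and 2.58 CPM in the small ones. The pair with even numbers was thus higher in the large library of every number, and the pair with odd numbers was lower in it. Outside number 1 some of these directions rest on few counts. In small 3 there were 3, 5, 5 and 9 counts for HSB_liver_CDS_27054 to HSB_liver_CDS_27057 in order. All 4 were raised in number 1, as the rule requires. The direction within each number was the same for all 4 with TMM scaling. By CPM, the rows beside the run did not continue this order. HSB_liver_CDS_27058 had 6.76, 6.90 and 5.45 CPM in the large libraries, against 14.3, 7.39 and 10.9 CPM in the small ones. HSB_liver_CDS_27052 and HSB_liver_CDS_27053 changed direction between numbers.

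The same pattern can be read as the share of the run's counts that fell on each pair. The even-numbered pair took 76.1% of the run's 1504 counts in large library 1 (exact 95% binomial interval 73.9% to 78.3%), 51.7% of 60 counts in large library 2 (38.4% to 64.8%) and 70.2% of 188 counts in large library 3 (63.1% to 76.6%). In the small libraries it took 29.6% of 2880 counts in number 1 (28.0% to 31.3%), 10 of 40 counts in number 2, or 25%, (12.7% to 41.2%) and 36.4% of 22 counts in number 3 (17.2% to 59.3%). These shares restate the order of levels from which the pairs were formed. Such intervals take each count as independent, which PCR copies of a molecule are not. They also leave out the spread between pools, and are too narrow for setting large against small fish. The interval of large library 2 ended below the start of that of large library 1, although both held large fish. The run as a whole stood at 282, 12.5 and 9.58 CPM in the large libraries, against 324, 16.4 and 6.30 CPM in the small ones.

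With the number as a block in edgeR, the log2 fold changes, large minus small, were 1.15 (SE 0.26) for HSB_liver_CDS_27054 and 1.14 (SE 0.23) for HSB_liver_CDS_27056. They were -1.23 (SE 0.41) for HSB_liver_CDS_27055 and -1.24 (SE 0.30) for HSB_liver_CDS_27057. None passed, with adjusted p-values of 0.96 for each of the 4 in edgeR and of 0.52 to 1.0 in DESeq2 with the block. Without adjustment, 5 members had p under 0.05 in that edgeR fit. They were these 4 and HSB_liver_CDS_13141 (log2 fold change -1.10, SE 0.37, edgeR adjusted p = 0.96), which is named after its values were seen. Reads that fit more than 1 of the run's sequences may have been shared between them, and how they were assigned was not tested.

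**Figure D4:**
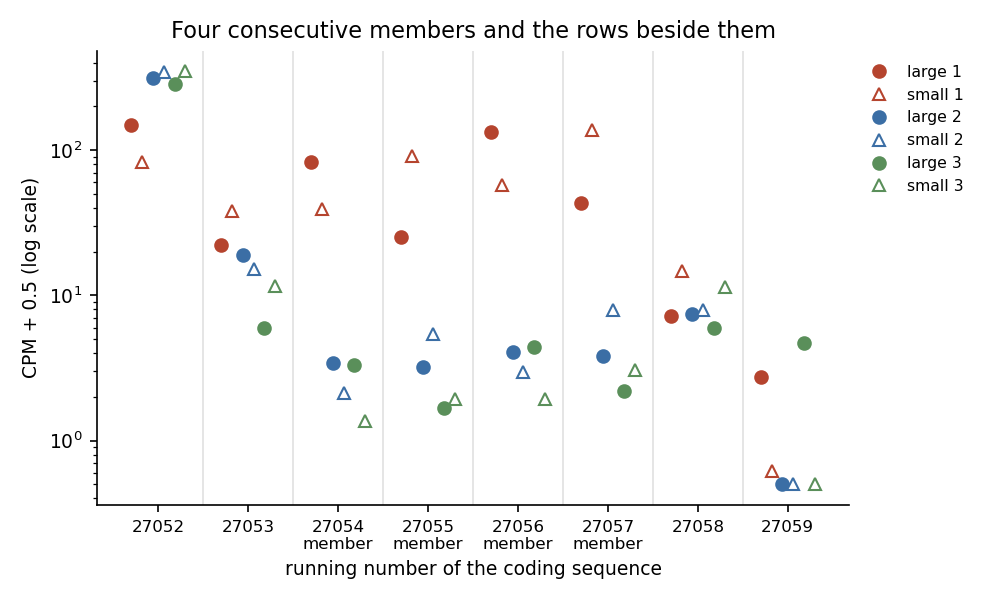
Level of 4 consecutive members and of the 2 rows on either side in each library, as CPM + 0.5 on a log scale. Filled circles are large and open triangles small libraries, coloured by number. Members 27054 and 27056 have the circle above the triangle in each number, and members 27055 and 27057 have it below.

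Running numbers were not used by the rule. Of the 200 members, 12 (6.0%) had another member directly before or after them in running number, in 1 run of 4 and 4 runs of 2. The same share was not computed for other rows, so whether members lie together more often than other rows was not tested. In the pair that holds the member of highest rank, HSB_liver_CDS_13624 and HSB_liver_CDS_13625, both were at or near 0 outside number 1. The pair HSB_liver_CDS_2650 and HSB_liver_CDS_2651 was more abundant. HSB_liver_CDS_2650 had 166 and 158 CPM in large 1 and small 1, and 28.6 to 32.5 CPM in the other 4. HSB_liver_CDS_2651 had 249 and 283 CPM in large 1 and small 1, and 34.1 to 47.2 CPM in the other 4. The other 2 pairs lay between 5.74 and 8.996 CPM in the libraries of number 1 and at 0.836 CPM or less elsewhere.

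Rows beside a member that were no members themselves were raised in number 1 about as often as other rows. Of 384 such rows, the rule could have chosen 217. Among these, 39.6% had a number 1 ratio above 1, against 40.4% of all rows open to the rule other than members, and 11.1% had a ratio above 2, against 8.26%. The sources used here do not say what the order of running numbers stands for.

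The order of numbers 2 and 3 in the members is given here beside that in the rows open to the rule. Of the 200, 57 (28.5%) were higher in number 2 in both growth groups and 27 (13.5%) were lower in both, against 34.3% and 24.9% of the rows open to the rule, which lean towards number 2 as well. Both libraries of number 2 lay above both of number 3 for 45 members (22.5%, background 25.9%), and below them for 18 (9.0%, background 17.5%). These shares of the members were under those of the rows open to the rule in both directions, and 122 members had 0 counts in at least 1 of the 4 libraries. The highest of the 4 was large 2 for 81 members, small 2 for 44, large 3 for 47 and small 3 for 28.

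The rule used the highest of these 4 libraries, although not the difference between number 2 and number 3, so the tests of that difference are not independent of the choice of members and are given as a description. In edgeR with growth in the model, number 2 minus number 3, 0 of 199 members passed an adjusted p of 0.05, against 0.312% of 20203 coding sequences tested. Their levels in number 1 were enough to pass the filter on low counts, which asks for 2 libraries. With 3 libraries asked for, 99 members were left, and 0 of them passed, against 0.32% of 18135 coding sequences. At an unadjusted p under 0.05 the first fit had 29 members higher in number 2 (background 5.34%) and 5 lower (background 4.47%). With 3 libraries asked for, 23 of the 99 members were higher and 2 lower, against 1019 and 821 of the 18135 coding sequences. Both counts depend on the rule, which capped the highest of the 4 libraries compared. The median log2 fold change over the 199 members was 0.20, against -0.0 over all coding sequences tested. This lean did not hold without large 2, where the medians were -0.29 and -0.03 in the same order. They were 0.39 and -0.02 without small 2, 0.59 and 0.03 without large 3, and 0.03 and -0.03 without small 3. Each of these fits leaves a single library in number 2 or in number 3, so only effect sizes are given for them. DESeq2 passed 5 of 170 members with an adjusted p, all higher in number 2, against 0.571% of all coding sequences with an adjusted p for that direction. Its filter uses the mean count over all libraries, so levels in number 1 also bear on which members had an adjusted p.

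The members that DESeq2 passed included both of the most abundant members. HSB_liver_CDS_35964 had a log2 fold change, number 2 minus number 3, of 2.21 (SE 0.44) in edgeR, with an adjusted p of 0.35 in edgeR and 5.1e-06 in DESeq2. It passed in edgeR when large library 1 or small library 1 was left out (adjusted p = 0.046 each). HSB_liver_CDS_32484 had a log2 fold change of 1.54 (SE 0.26), with an adjusted p of 0.26 in edgeR and 0.00011 in DESeq2. HSB_liver_CDS_36542, ranked 41, had 3.55 and 5.34 CPM in large 2 and small 2, against 0.408 and 0 CPM in large 3 and small 3. Both libraries of number 2 were above both of number 3, with an adjusted p of 0.29 by edgeR and 0.0044 by DESeq2. The remaining ones, named after their values were seen, were HSB_liver_CDS_31447 and HSB_liver_CDS_8404. HSB_liver_CDS_31447 had 33.2 and 55.04 CPM in large 2 and small 2, against 8.41 and 2.58 CPM in large 3 and small 3 (adjusted p = 0.33 in edgeR and 1.4e-07 in DESeq2). HSB_liver_CDS_8404 had 4.39 and 2.05 CPM in large 2 and small 2, against 0.0509 and 0 CPM in large 3 and small 3, the last of which rest on 1 and 0 counts (adjusted p = 0.30 in edgeR and 0.0025 in DESeq2).

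Other members had the opposite order, with both libraries of number 2 below both of number 3 in 18 of them. HSB_liver_CDS_20486, ranked 79, had 0.418 and 0.411 CPM in large 2 and small 2, against 1.68 and 3.15 CPM in large 3 and small 3, and 20.1 and 25.8 CPM in large 1 and small 1. The log2 fold change, number 2 minus number 3, was -2.33 (SE 0.54, edgeR adjusted p = 0.42). HSB_liver_CDS_26627, ranked 73, had 0 counts in both libraries of number 2, against 15 and 5 counts (0.764 and 1.43 CPM) in large 3 and small 3. A count of 0 allows 0.627 CPM in large 2 and 1.23 CPM in small 2, the shallower library of number 2. The log2 fold change, number 2 minus number 3, was -5.96 (SE 1.32, edgeR adjusted p = 0.43), and its size depends on those counts of 0.

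**Figure D5:**
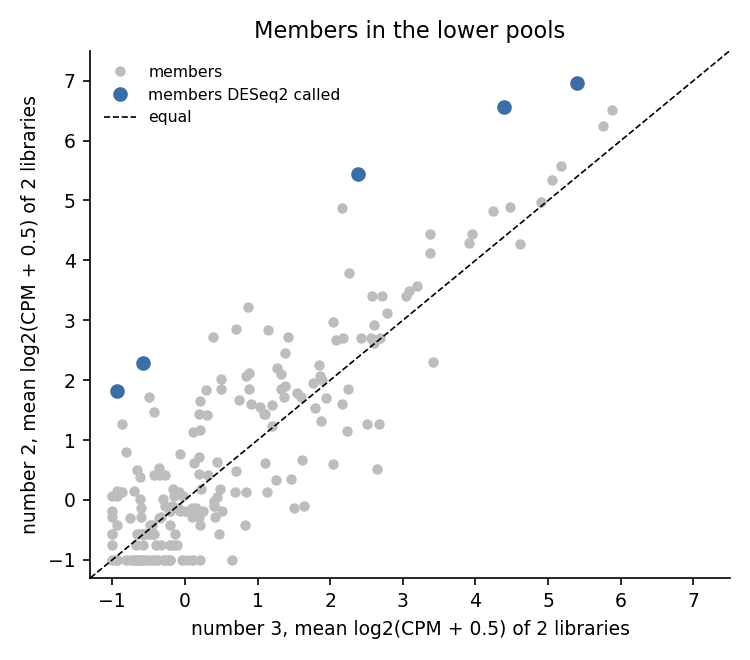
Mean level of each member over the 2 libraries of number 2 (vertical axis) against that over the 2 libraries of number 3 (horizontal axis), as log2(CPM + 0.5). The 5 members that DESeq2 passed (blue) all lie above the dashed line of equal levels, and the 2 of highest level are HSB_liver_CDS_32484 and HSB_liver_CDS_35964.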

How the data were processed

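The authors deposited 1 table of expected counts with a row per coding sequence and a column per library. The tools named, per the submitters' processing notes, are eXpress 1.5.1, DESeq2, Bowtie2 2.3.1 and Trim Galore 0.4.3, without roles or settings. Because eXpress estimates counts, the deposited values were read as estimated counts (0 were not whole). CPM was computed from library totals.

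The members, the lists and the tests were chosen with earlier results of these data known. EdgeR 4.0.16 in R 4.3.3 was fitted to the whole table (quasi-likelihood test, robust, TMM factors of 0.915 to 1.10, filterByExpr with the number as group, Benjamini-Hochberg adjustment, threshold 0.05). That filter asks for 2 libraries above its limit; with growth as group it asks for 3 and keeps 99 members. SEs were derived from the F statistic. DESeq2 1.42.0, other scaling and filters, a block by number and leaving out libraries were alternatives.

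Whether numbers pair the libraries was judged from how each library departed from its group's mean log2 CPM. These departures correlated at 0.71, 0.20 and 0.57 between the large and small libraries of numbers 1, 2 and 3, all above a limit of 0.1. Libraries of unlike number reached 0.19 (large 3 with small 2) and 0.11 (large 2 with small 3), which are above that limit as well. The limit thus does not set paired libraries apart, and the 0.20 of number 2 cannot be told from the 0.19 of unlike numbers. Departures from a group's mean also depend on each other. The labels do not give the pairing, so the block and the comparisons within number 2 rest on a pairing that was not shown. Identifiers were named by rule: the 2 members of highest rank, the 2 most abundant, and in each test the 2 of smallest p in each direction. No list of named genes was tested.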

Additional observations from a re-analysis of the deposited data

How the results depend on the processing

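Between large and small fish the count of members passed was 0 in the main test and in each of the 12 alternatives run, the replicate block in edgeR (0) and in DESeq2 (0) included, and the block changed no call. Fits without the block count the difference between number 1 and the others as spread within each growth group. A count of 0 there, or in the fits with the block, does not bound how many members differ. Without large 1 or small 1 the growth groups also differ in whether they hold a library of number 1. Between numbers 2 and 3 the count was 0 in edgeR, also with 3 libraries asked for by the filter, 5 in DESeq2 and 0 to 1 when 1 library was left out. For this gap between edgeR and DESeq2 the cause was not tested. Under other forms of the rule 132 of the 200 members were kept with a minimum of 10 CPM, which by construction leaves out lower members, 130 to 164 without 1 of the other libraries, and 148 to 200 in the remaining settings. The number of members beside another member was 12 to 16 throughout. The median log2 difference, large minus small, was 0.21 over the members and -0.03 over rows open to the rule. It was -0.03 within number 1 and 0.44 with 0.1 CPM added in place of 0.5, and ran from -0.82 without large library 1 to 1.46 without small library 1, since a group then holds 1 library of number 1 fewer. It was 0.71 without large 2, 0.79 without large 3, -0.31 without small 2 and -0.46 without small 3. For the same reason the log2 fold changes of members named for growth turned sign: leaving out single libraries gave -5.17 to 3.29 for HSB_liver_CDS_16608, -2.04 to 3.47 for HSB_liver_CDS_17165, -3.98 to 1.53 for HSB_liver_CDS_27055 and -2.31 to 4.51 for HSB_liver_CDS_27056. The filter asking for 3 libraries in the comparison of numbers 2 and 3, the settings of the running numbers, and the scaling and added amount for the median, were chosen after seeing the data. Levels under 1.23 CPM cannot be told from 0 in the shallowest library.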

Other observations

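Within number 1, a few members were far from equal between large and small fish. They are named after their values were seen. HSB_liver_CDS_23630, ranked 193, had 9.95 CPM in the large and 1.57 CPM in the small library of number 1 (53 and 14 counts), the widest difference in that direction among the 200 members. HSB_liver_CDS_9950, ranked 169, had 12.6 CPM in the large and 3.82 CPM in the small library (67 and 34 counts). Both were at 0.573 CPM or less in each library of numbers 2 and 3, so that the difference between growth groups could be seen in number 1 alone and has no replicate there.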
